A study of Mus musculus with 24 samples.

Results

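H3K27ac was compared between erythroleukaemic cells with and without a doxycycline-induced hairpin RNA against Spi1, over every peak on the assembled chromosomes of mouse build mm10. The untreated list held 28902 such peaks and the treated list 23341, together 52243 of the 272993 peaks in the 4 lists used from the series. All 21887 protein-coding genes were described from them. The cells, TgSpi1 line #763 from leukaemic bone marrow, carry a Spi1 transgene that overexpresses SPI1 and were grown with erythropoietin (EPO). The treated group had 48 h of doxycycline, which switches on the hairpin. The control group was the same line without doxycycline, so both groups carry the transgene and the inducible hairpin. No group with doxycycline and no hairpin was used, so the drug and the hairpin cannot be told apart. The line is a single one, and the 4 samples form 2 lists, each of which stands for replicates 1 and 2 of its condition together. With 1 list per condition no difference has a replicate error or a p-value, and each statement compares 2 lists.

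SPI1 (PU.1) is an ETS family transcription factor that drives myeloid and B cell genes and opposes red cell maturation when its level stays high in erythroid precursors. H3K27ac is an acetyl mark on histone H3 that lies on the nucleosomes flanking active promoters and enhancers, and histone deacetylases remove it. A broad run of the mark over a start and the first part of a gene is typical of highly transcribed genes. A peak list records where the mark was called and over how many bp, not its height. The measure used for each gene is therefore an H3K27ac length, the number of bp under peaks up to 5 kb either side of any of its starts. At 4395 genes without a listed start, both annotated gene ends stood in for it. A gene was called longer or shorter in the treated list when this length was at least 2-fold apart and reached 1000 bp in the longer list.

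Within 1 kb, starts whose acetylation was lost from the treated list had a higher share with the PU.1 core motif than starts that gained it. Of 21263 promoter sequences of 17492 genes (250 bases before to 50 after the start; RefSeq, build GRCm38.p6, which is the assembly of mm10), 318 had H3K27ac within 1 kb in the untreated list only and 186 in the treated list only. The letters GAGGAAGT, the core of a PU.1 site, stood on either strand in 21 of the 318 (6.6%, exact 95% interval 4.13 to 9.92%). They stood in 2 of the 186 treated-only promoters (1.08%, 0.13 to 3.83%). When H3K27ac had to lie within 500 bp of the start, the counts were 18 of 297 (6.06%, 3.63 to 9.41%) and 3 of 187 (1.6%, 0.332 to 4.62%), in the same order but with overlapping intervals. The share was 3.13% among all promoters, 2.94% among those acetylated in both lists and 3.24% among those acetylated in neither. The related ETS letters CCGGAAGT also stood more often in untreated-only (9 of 318, 2.83%) than in treated-only promoters (2 of 186, 1.08%), with overlapping intervals. Unlike the PU.1 core, these letters had their highest share among promoters acetylated in both lists (976 of 9724). The shorter letters GAGGAA, searched after the first result was seen, stood in 108 of 318 (28.8 to 39.5%) and 38 of 186 (14.9 to 26.9%), against 27.4% of all promoters. The intervals cover counting error only, and starts of 1 gene can lie close together and share bases. Some of the 21 starts had little H3K27ac within 1 kb, such as 26 bp at Tm4sf5 and 72 bp at S100a4. Motif shares were not taken with the untreated list limited to its widest peaks, so that both lists had the same number. There, untreated-only and treated-only genes went from 312 and 187 to 193 and 328.

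Parts of 60 bases are shown for 8 untreated-only starts with the core and the most H3K27ac within 1 kb, chosen after their values were seen. Each is written 5′ to 3′ along the gene, in lower case, with the core in capitals. The reverse form of the core reads ACTTCCTC.
Ccdc88b: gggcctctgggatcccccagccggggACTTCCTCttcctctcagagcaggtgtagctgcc
Adora3: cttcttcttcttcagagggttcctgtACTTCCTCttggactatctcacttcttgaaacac
Dennd1c: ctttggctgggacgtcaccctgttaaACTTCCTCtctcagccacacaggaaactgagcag
Tnip3: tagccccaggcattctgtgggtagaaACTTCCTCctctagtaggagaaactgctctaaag
Arhgap27: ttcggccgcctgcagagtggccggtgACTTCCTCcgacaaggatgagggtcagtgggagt
Gal3st2c: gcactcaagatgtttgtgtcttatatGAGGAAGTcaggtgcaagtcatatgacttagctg
Cxcr3: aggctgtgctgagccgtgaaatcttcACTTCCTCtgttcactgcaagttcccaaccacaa
P2ry10b: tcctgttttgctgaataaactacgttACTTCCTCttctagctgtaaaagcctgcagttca
Ccdc88b lies on the minus strand at chr19:6858174-6858233 and Adora3, an adenosine receptor gene, on the plus strand at chr3:105904365-105904424. In Adora3 the core began 30 bases before the start, in Dennd1c 32, in P2ry10b 45 and in Cxcr3 16, so in these 4 it lay close upstream of the start. In Ccdc88b and Arhgap27 it began 4 and 13 bases past it. H3K27ac within 1 kb of the start was 1503 bp at Ccdc88b, 1353 bp at Adora3, 1053 bp at Dennd1c, a regulator of RAB proteins, and 1003 bp at Tnip3, an inhibitor of NF-kB signalling. All 4 were at 0 bp in the treated list. Cd72, a B cell surface gene (453 bp and 0 bp), and Grb2, an adaptor of receptor tyrosine kinases (86 bp and 0 bp within 1 kb), were among the other starts of this kind. A match of letters is a description and not a measured binding site.

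For motifs of erythroid factors the intervals of untreated-only and treated-only promoters overlapped. The GATA letters AGATAAG stood in 10 of 318 untreated-only promoters (3.14%, 1.52 to 5.71%) and 4 of 186 treated-only ones (2.15%, 0.589 to 5.41%), against 2.64% of all. The 4 treated-only genes were Hbb-bs, an adult beta-globin gene, the cytokine receptor gene Il9r, Mmp27 and Sfrp5. The KLF letters CCACACCC stood in 6.29% (3.88 to 9.55%) and 3.76% (1.53 to 7.6%), against 3.63% of all. Their untreated-only interval lay above the share of all promoters, as it did for the PU.1 core. Within 500 bp the KLF shares were 6.73% and 5.88%. The letters TGAGTCA, read by AP-1 and NF-E2, had the opposite order, at 4.72% (2.66 to 7.66%) where the start was lost and 8.6% (5.0 to 13.6%) where it was gained, against 4.66% of all. RUNX letters (TGTGGTT) stood in 4.72% and 6.45%, the E-box CAGATG in 13.8% and 17.2%, CCAAT in 39.0% and 29.6% and the GC box GGGCGG in 46.5% and 47.8%. The median GC content was 56.2% in untreated-only and 56.8% in treated-only promoters, below the 62% of promoters acetylated in both lists. The exact intervals of untreated-only and treated-only promoters overlapped for each of these motifs and for CCGGAAGT. For the PU.1 core they did not within 1 kb, by a narrow margin, and did within 500 bp. The GATA order turned within 500 bp, to 2.36% and 2.67%.

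**Figure D1:**
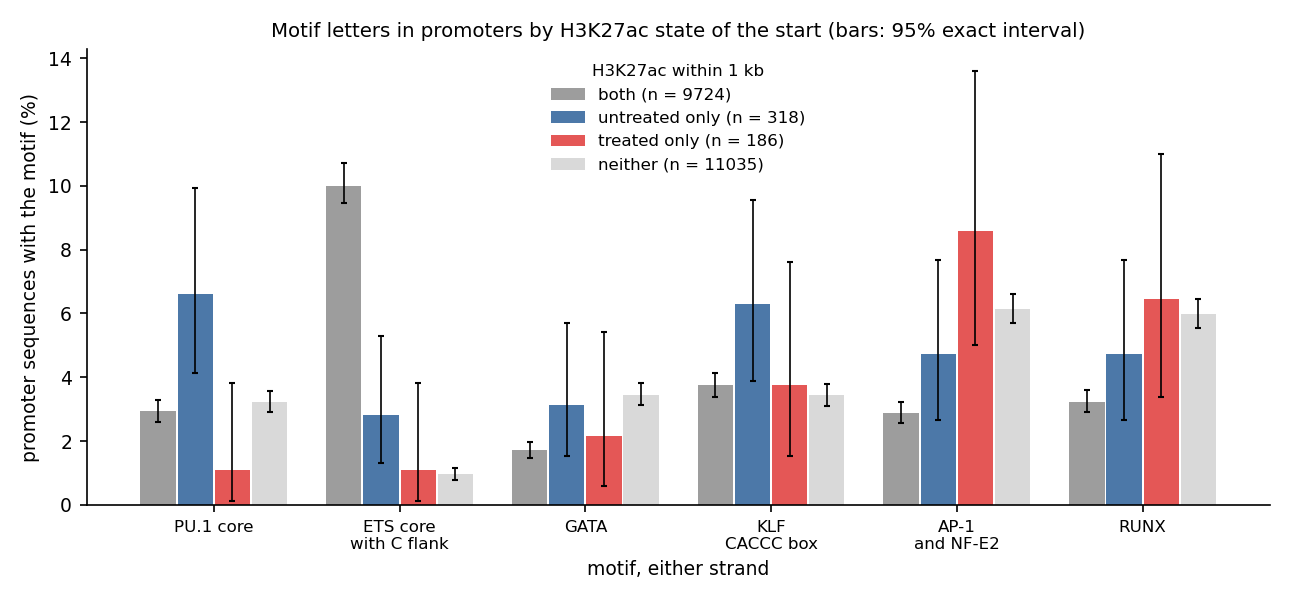
Share of promoter sequences (%, vertical axis) that hold each motif's letters on either strand, for starts with H3K27ac within 1 kb in both lists, the untreated list only, the treated list only or neither; bars through the columns are exact 95% intervals. The PU.1 core stood in 6.6% of untreated-only and 1.08% of treated-only promoters, while the ETS core with a C flank was most frequent in starts acetylated in both.

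Whole promoters are shown for Nfam1, Hba-a1 and Ppbp, among the longest genes with a start in 1 list only, and for Lcp2, Evi2b and Fhdc1, named genes with a PU.1 core or GATA motif, which is in capitals. Nfam1 (chr15:83033348-83033647, minus strand) and Lcp2 (chr11:34046678-34046977, plus strand) were acetylated in the untreated list only, and Hba-a1 (chr11:32283422-32283721, plus strand) in the treated list only. Evi2b (chr11:79523713-79524012, minus strand) and Fhdc1 (chr3:84479442-84479741, minus strand) were acetylated in both lists and called shorter and longer. Ppbp (chr5:90768268-90768567, plus strand) was acetylated at its start in the treated list only.
Nfam1: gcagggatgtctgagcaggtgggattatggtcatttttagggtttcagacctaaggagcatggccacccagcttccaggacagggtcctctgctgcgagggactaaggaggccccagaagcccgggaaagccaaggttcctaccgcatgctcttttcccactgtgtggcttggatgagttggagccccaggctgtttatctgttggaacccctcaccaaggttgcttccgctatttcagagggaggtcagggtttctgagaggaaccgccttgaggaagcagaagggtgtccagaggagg
Lcp2: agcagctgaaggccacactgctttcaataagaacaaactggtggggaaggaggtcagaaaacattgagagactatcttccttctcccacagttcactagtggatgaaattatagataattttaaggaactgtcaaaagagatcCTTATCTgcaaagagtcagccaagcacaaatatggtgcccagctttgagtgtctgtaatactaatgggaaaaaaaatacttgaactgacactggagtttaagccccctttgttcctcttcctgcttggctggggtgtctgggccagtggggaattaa
Evi2b: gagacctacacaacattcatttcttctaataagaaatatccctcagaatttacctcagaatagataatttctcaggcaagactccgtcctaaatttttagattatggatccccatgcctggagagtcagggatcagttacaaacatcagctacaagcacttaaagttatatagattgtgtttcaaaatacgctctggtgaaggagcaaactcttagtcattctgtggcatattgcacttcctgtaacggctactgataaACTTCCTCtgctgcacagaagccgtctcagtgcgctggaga
Hba-a1: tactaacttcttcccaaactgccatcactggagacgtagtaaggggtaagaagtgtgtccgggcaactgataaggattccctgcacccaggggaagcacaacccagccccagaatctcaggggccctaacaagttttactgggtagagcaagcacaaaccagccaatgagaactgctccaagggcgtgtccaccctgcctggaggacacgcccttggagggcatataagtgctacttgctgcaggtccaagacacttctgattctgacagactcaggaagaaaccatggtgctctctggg
Ppbp: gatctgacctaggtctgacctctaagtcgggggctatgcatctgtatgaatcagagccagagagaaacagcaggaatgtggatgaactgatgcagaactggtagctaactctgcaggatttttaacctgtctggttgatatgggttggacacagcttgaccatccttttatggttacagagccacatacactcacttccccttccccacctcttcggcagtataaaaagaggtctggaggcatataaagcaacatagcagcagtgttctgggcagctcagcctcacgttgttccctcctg
Fhdc1: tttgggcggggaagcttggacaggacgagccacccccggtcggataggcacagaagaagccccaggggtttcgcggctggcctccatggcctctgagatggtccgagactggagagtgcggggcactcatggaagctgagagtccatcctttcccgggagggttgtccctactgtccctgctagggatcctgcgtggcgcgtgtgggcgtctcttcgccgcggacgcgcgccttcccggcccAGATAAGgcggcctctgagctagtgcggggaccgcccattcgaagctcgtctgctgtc
Nfam1, a signalling receptor of immune cells, had an H3K27ac length of 4109 bp untreated and 0 bp treated. Its promoter held neither GAGGAAGT nor AGATAAG on either strand, but did hold the shorter letters GAGGAA. Lcp2, an adaptor below immune receptors, had 3153 bp and 0 bp, with a GATA motif on the opposite strand 107 bases before the start. In Evi2b the PU.1 core lay on the opposite strand 9 bases past the start, and the H3K27ac length was 6623 bp and 2156 bp. In Fhdc1, a formin, a GATA motif lay 8 bases before the start, and the length was 603 bp and 4553 bp. Hba-a1 and Ppbp held neither GAGGAAGT nor AGATAAG on either strand in this window. Related letters, such as TGATAAG in Hba-a1, were not counted.

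The labelled cell type was checked against a set of marker genes. Of 12 erythroid markers, 8 had H3K27ac within 1 kb of a start in the untreated list and all 12 in the treated list, and their summed H3K27ac length was 45772 bp and 70535 bp. The 4 that appeared in the treated list were Alas2, Slc4a1, Hba-a1 and Hbb-bs. Gata1 (9942 bp and 9665 bp) and Klf1 (4537 bp and 4553 bp) were acetylated in both. Of 8 myeloid markers, 2 had H3K27ac at a start in the untreated list and 1 in the treated list, with sums of 1809 bp and 806 bp, and Mpo, Elane, Itgam, Lyz2 and Ly6g were at 0 bp in both. Megakaryocyte markers had 4 of 5 acetylated in each list, with sums of 15670 bp and 21828 bp. B cell markers had 0 of 5 in each list, T and NK cell markers 0 and 1 of 6 and mast cell markers 0 and 1 of 4. Stromal and endothelial markers had 0 of 6 in each list, with 653 bp and 0 bp in all. Changes in the share of maturing cells and changes within each cell cannot be told apart in such bulk samples.

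Most active starts were acetylated in both lists. A peak lay within 1 kb of a start in both lists at 9904 genes (45.3%), in the untreated list only at 312, in the treated list only at 187 and in neither at 11484. Of the 10403 genes acetylated in either list, 3.00% were thus in the untreated list only and 1.80% in the treated list only. When the untreated list was limited to its 23341 widest peaks, so that both lists had the same number, the order turned to 193 and 328 genes. At Spi1 itself (chr2:91082374-91115759) the H3K27ac length was 3265 bp without and 2412 bp with doxycycline, and within 1 kb of its annotated ends it was 1529 bp and 753 bp. These values are no measure of the knockdown, since a hairpin RNA targets the transcript.

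The genes with a start in the untreated list only and the longest windows are given first. For all genes in this paragraph except Tmem253, both annotated ends stood in for the start. A lost peak may thus lie at the far end of the gene. Abi3, which binds the actin-regulating WAVE complex, had a length of 6316 bp untreated and 1854 bp treated. Icam2, an adhesion molecule of blood and endothelial cells, had 5827 bp and 1453 bp. Lgals1, a galectin gene, had 6226 bp and 3223 bp. Tnfsf12, a TNF family ligand, had 4421 bp and 1562 bp, Nfatc1, a calcium-regulated transcription factor, 4244 bp and 781 bp, and Trim11 4980 bp and 2128 bp. At Glt8d2 the lengths were 4180 bp and 2327 bp. Tmem253 and Ndufa4l2 also met the rule, but their wider windows hardly differed (5220 bp and 4870 bp, and 4215 bp and 4409 bp).

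The genes with a start in the treated list only and the longest windows included 2 globin genes. Hba-a1 had 0 bp untreated and 6109 bp treated, and Hbq1b, a theta-globin gene beside it, 0 bp and 5344 bp. Their windows share peaks, and reads of the alpha-globin copies may be split between them. Alas2, the first enzyme of erythroid haem synthesis, had 1003 bp and 4856 bp: a single peak of 1003 bp lay inside the gene in the untreated list, and the treated list added a peak of 2753 bp across the start. Ppbp, a platelet chemokine gene, had 3256 bp and 6856 bp. Ripor2 had 2416 bp and 5762 bp, and Sh3tc2 0 bp and 5265 bp. Fam13b had 706 bp and 4956 bp, and Phyhip 1656 bp and 4953 bp. At Sh3tc2, Fam13b and Phyhip both annotated ends stood in for the start, so the gained peak may lie at either end. Trim15 had 2006 bp and 5309 bp, and its neighbour Trim10, whose windows hold the same peaks, is a gene of terminal red cell maturation.

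Across the 11211 genes with any H3K27ac in the 5 kb window, the median length was 2153 bp in each, and the median difference was 0 bp. At the 1st and 99th percentiles of genes the difference, treated minus untreated, was -2386 bp and 2602 bp. In the treated list 333 genes (2.97%) were called longer and 328 (2.93%) shorter. Which count was larger depended on the processing, with 407 longer and 287 shorter at equal peak number and 347 and 417 when peaks within 1 kb were merged. With no threshold on size, 5359 (47.8%) were longer and 5413 (48.3%) shorter.

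**Figure D2:**
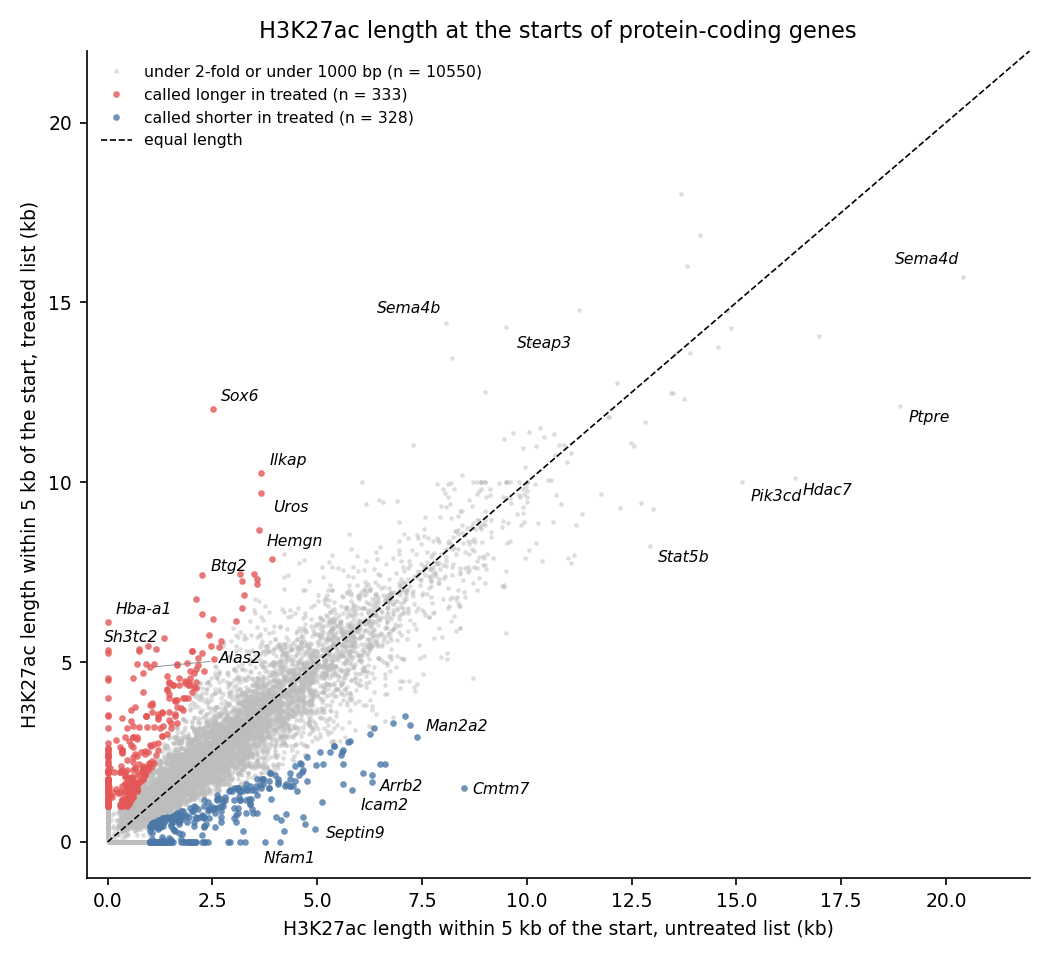
H3K27ac length within 5 kb of the start of each of 11211 genes, in kb, in the untreated list (horizontal axis) and the treated list (vertical axis), each point a gene. The 333 genes called longer and the 328 called shorter lie either side of a dense band around equal length. Several genes with very long untreated lengths, summed over several starts, such as Ptpre, Hdac7 and Sema4d, lie below the line without reaching 2-fold.

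The largest gain in length was at Sox6, summed over the windows of 6 starts. Sox6 (chr7:115470872-116040776), a SOX factor that silences embryonic globin in maturing red cells, had 2509 bp untreated and 12036 bp treated. In the untreated list its windows held peaks of 853 bp, 3 bp and 1653 bp. In the treated list they held 6 peaks, of which the widest had 5403 bp, 4303 bp and 3353 bp. Uros, an enzyme of haem synthesis, had 3659 bp and 9708 bp, and Hemgn, a nuclear factor of blood precursors, 3603 bp and 8685 bp. Btg2, an antiproliferative gene, had 2253 bp and 7409 bp. Ilkap, a phosphatase gene that ends beside Erfe, had 3659 bp and 10260 bp, and Erfe, the erythroferrone gene, 1103 bp and 4935 bp from its own start. Ptdss2, a phosphatidylserine synthase, had 2103 bp and 6753 bp, and Clgn 753 bp and 5356 bp. Steap3, a ferrireductase that serves iron uptake in red cell precursors, went from 9515 bp to 14312 bp, under the 2-fold rule. The same held for Sema4b (8068 bp and 14424 bp). Ehd1, which acts in endosome recycling, had 8224 bp and 13465 bp. Lengths at Uros and Sema4b are summed over 2 starts and at Steap3 over 4. At Ilkap, Clgn and Ehd1 both annotated ends stood in for the start, so the gain may lie at either end.

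The largest loss was at Cmtm7, and several other losses were at genes with a long H3K27ac length in the untreated list. A large loss in bp requires such a length. Cmtm7 had 8504 bp untreated and 1503 bp treated: peaks of 7903 bp and 4103 bp gave way to a single peak of 1503 bp at the start. Septin9, a cytoskeletal GTPase, had 4956 bp and 353 bp, summed over 4 starts. Arrb2, a beta-arrestin, had 6306 bp and 1653 bp, Man2a2, an enzyme of N-glycan processing, 7385 bp and 2909 bp, and Evi2b, Abi3 and Icam2 are given above. At Arrb2 and Man2a2 both annotated ends stood in for the start. Other genes with large losses stayed under the 2-fold rule. Their lengths are summed over the windows of several starts, from 2 at Stat5b to 4 at Hdac7, and do not show single broad domains. Ptpre, a tyrosine phosphatase, had 18914 bp and 12134 bp. Hdac7, a class IIa deacetylase, had 16389 bp and 10117 bp. Pik3cd, the PI3-kinase subunit of leukocytes, had 15145 bp and 9998 bp, Stat5b, a transcription factor below the erythropoietin receptor, 12941 bp and 8241 bp, and the semaphorin gene Sema4d 20415 bp and 15718 bp. Over genes grouped by the mean of their 2 lengths, 52.1% of the 3323 genes from 1000 to below 2000 bp were longer and 42.6% shorter. Of the 1369 genes from 4000 to below 6000 bp, 45.6% were longer and 53.5% shorter. Of the 606 genes of 6000 bp and over, 46.4% were longer and 52.3% shorter, with 4 called longer and 0 shorter.

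When every peak, near or far, was given to the gene with the nearest start, 662 of 11758 genes (5.63%) were called longer and 639 (5.43%) shorter, with a minimum of 2000 bp. At equal peak number these were 753 and 580, and with peaks within 1 kb merged 700 and 770. Sox6 had 16542 bp in 14 peaks in the untreated list and 41560 bp in 20 peaks treated. Podxl, a sialomucin gene, had 29081 bp and 50934 bp, and Pim1, a survival kinase below STAT5, 31804 bp and 47004 bp, both under 2-fold. Gda, guanine deaminase, had 6265 bp and 27324 bp, and Cpeb4, which controls translation in terminal red cell maturation, 5971 bp and 23995 bp. Nprl3, the gene that holds the alpha-globin enhancers in its introns, had 4665 bp and 25265 bp. Fhdc1 had 1309 bp and 16268 bp, Fig4 2415 bp and 19092 bp, and Eral1 2556 bp and 17356 bp.

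The opposite difference around a gene was found at Tec, a cytoplasmic tyrosine kinase of blood cells, with 25895 bp and 6224 bp. Muc13, a cell surface mucin, had 37927 bp and 18024 bp, Fut8, the core fucosyltransferase, 25472 bp and 7468 bp, and Lcp2 19736 bp and 6465 bp. Angpt1, a growth factor for vessels and stem cells, had 20801 bp and 5168 bp while its start window hardly differed (3003 bp and 2603 bp). Etv6, an ETS repressor gene, had 22048 bp and 9765 bp, and Sipa1l1 19833 bp and 7668 bp. Fam133b had 25983 bp and 7462 bp, from peaks that lie in its neighbour Cdk6. Septin9 had 19848 bp and 7680 bp. Some values come from 1 peak changing hands: a treated peak of 15753 bp was nearest to Vamp8 (0 bp untreated), and its neighbour Vamp5 went from 18956 bp to 803 bp. With each base given to its own nearest start, an alternative added after the values were seen, Vamp8 had 7884 bp and 8134 bp and Vamp5 11072 bp and 8422 bp. The histone genes H2ac4 (0 bp and 27303 bp) and H3c4 (0 bp and 18453 bp) were of the same kind, with 2805 bp in each list and 3379 bp and 3593 bp by base. The other genes named for this measure kept their direction by base.

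Red cell genes were mostly longer in the treated list. Of 45 genes of red cell structure and haem, 43 had H3K27ac in the window, and 37 were longer and 5 shorter. At 2-fold, 10 were called longer and 0 shorter, against 2.97% and 2.93% of all genes, and the median difference over all 45 was 847 bp against 0 bp over all genes. Sptb, beta-spectrin, had 1953 bp untreated and 4456 bp treated, and Slc4a1, the band 3 anion exchanger, 0 bp and 1953 bp. Aqp1, a water channel, had 3262 bp and 5651 bp. Catalase (Cat, 5502 bp and 4605 bp) was among the 5 shorter members. The extra length lay on both sides of the start. Of 33 members with a stranded start, 25 were longer upstream and 21 downstream, and the mean length was 1574 bp and 2196 bp upstream and 2399 bp and 3165 bp downstream. Genes of nuclear and organelle clearance had 13 longer and 8 shorter of 22, with Trim10 the 1 called. Genes for GATA, KLF and other erythroid factors had 13 longer and 10 shorter of 25, and Sox6 was the 1 called.

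Genes of other blood lineages differed in their direction. Of 46 myeloid genes, 20 had any H3K27ac, and 19 of these were shorter and 1 longer in the treated list, with 8 and 1 called. Of all genes, 48.3% were shorter and 47.8% longer, and 2.93% and 2.97% were called. The called losses included Laptm5, a lysosomal membrane gene of blood cells (3053 bp and 753 bp), and Irf5, an interferon regulatory factor (2056 bp and 553 bp). The exception was Ncf4, a subunit of the phagocyte oxidase, at 0 bp and 2587 bp. Megakaryocyte genes had 8 longer and 4 shorter of 13, with Ppbp called longer and Treml1 (1853 bp and 703 bp) called shorter. Of mast cell genes 2 were longer and 5 shorter of 8, of B cell genes 1 and 5 of 6, and of T and NK cell genes 1 and 3 of 4. Named losses in these were Prss34, a mast cell and basophil protease (1058 bp and 0 bp), and Gzmb, granzyme B (1306 bp and 0 bp).

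Genes for actin assembly and adhesion were more often shorter than longer. Of 39 acetylated genes of actin assembly 27 were shorter and 11 longer, with a median of -253 bp over all 45. Capg, a capping protein (4764 bp untreated and 2361 bp treated), and Arpc1b, an ARP2/3 subunit of blood cells (3303 bp and 1606 bp), were called. The shortening lay downstream of the start, where 28 of 41 stranded members were shorter and 7 longer, with 15 and 14 upstream. In the adhesion list, which holds integrin, selectin, sialomucin and other genes, 18 were shorter and 8 longer of 27. Of these 27, 4 were called shorter, against 2.93% of all genes. They were led by Icam2, Ccm2 (5606 bp and 2553 bp) and Icam1 (3056 bp and 553 bp), which belong to none of the named families. This list came to 19 shorter and 14 longer by nearest start, and to 15 and 11 at equal peak number. Tubulin and kinesin genes had 22 longer and 17 shorter of 40.

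Genes of cytosolic ribosomal proteins were mostly slightly shorter in the treated list. All 77 had H3K27ac in the window, and 68 were shorter and 8 longer in the treated list, against 48.3% and 47.8% of all genes. None was called at 2-fold. Their mean length was 4556 bp untreated and 3951 bp treated, and the median difference was -553 bp. Of 57 members with a stranded start, 48 were shorter and 7 longer downstream of it, with means of 3047 bp and 2564 bp and a median difference of -303 bp. Upstream 33 were shorter and 19 longer, with means of 1379 bp and 1293 bp and a median difference of -50 bp. At 2500 bp past the start, 56.1% of these genes lay inside a peak in the untreated list and 33.3% in the treated list, and at 1000 bp 100% did in each. Rps25 (6616 bp and 4356 bp), Rps12 (5809 bp and 3953 bp) and Rps24 (5256 bp and 3406 bp) had the largest losses, and Rpl19 (3956 bp and 4306 bp) the largest gain, named after their values were seen. With scaled lengths the counts were 68 shorter and 9 longer, and with equal peak numbers 64 and 12. Of all 1369 genes with a mean length from 4000 to below 6000 bp, 53.5% were shorter, with a median of -100 bp. Genes of translation initiation and tRNA charging had 38 shorter and 33 longer of 75, ribosome biogenesis 21 and 13 of 35, and splicing factors 47 and 37 of 86.

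**Figure D3:**
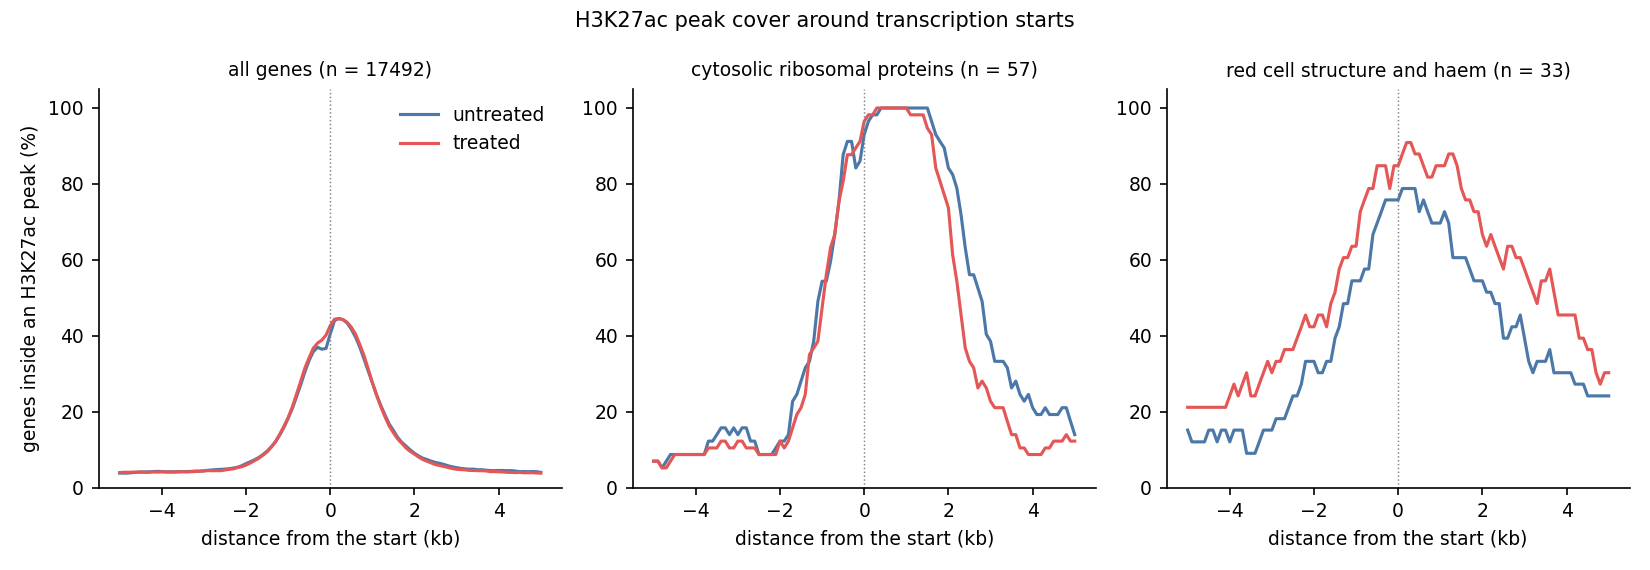
Share of genes (%, vertical axis) whose base at each distance from the start (horizontal axis, kb, negative upstream) lies inside an H3K27ac peak, in the untreated and treated lists. All 17492 genes give near-equal curves apart from the base just upstream of the start, 57 ribosomal protein genes have a shorter downstream shoulder in the treated list (33.3% against 56.1% at 2500 bp), and 33 red cell genes lie higher on both sides.

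Over all genes the outline of the mark around the start was nearly the same. In both lists it peaked 200 bp past the start, at 44.6% of 17492 genes untreated and 44.5% treated. At 2 kb past the start it was 9.12% and 8.88%. The lists differed most just upstream, where the untreated profile had a dip: 100 bp before the start 36.7% of genes lay inside an untreated peak and 40.2% inside a treated one. Over all peaks, 2514 treated ones overlapped 2 or more untreated peaks, and 1153 untreated ones overlapped 2 or more treated peaks. Summed to 5 kb, the mean was 551 bp and 561 bp upstream and 716 bp and 707 bp downstream.

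Metabolic and stress gene lists are given by their counts and medians. Of all genes with H3K27ac in the window, 47.8% were longer and 48.3% shorter, and 2.97% were called longer and 2.93% shorter. Glutathione and oxidative stress genes had 21 longer and 8 shorter of 29, with a median of 275 bp over 32. Of these 29, 2 were called longer, the glutathione transferase genes Gsta4 (0 bp and 1953 bp) and Gstm5 (353 bp and 1003 bp), and 0 shorter. Genes of the integrated stress response and amino acid supply had 18 longer and 7 shorter of 25 and none called, with a median of 400 bp. Asns, asparagine synthetase, had 8820 bp and 10001 bp, and Trib3, a stress-induced pseudokinase, 5806 bp and 6712 bp, while Atf4, the response's main factor, had 7321 bp and 6624 bp. With peaks given to the nearest start these lists came to 17 longer and 12 shorter, and 14 and 11. Hypoxia and circadian genes had 17 longer and 8 shorter of 27, with the clock gene Ciart called (703 bp and 1553 bp) and Per2 at 3663 bp and 5257 bp. Cholesterol genes had 18 longer and 11 shorter of 31, and Hmgcs1, an early enzyme of the pathway, 2406 bp and 3903 bp. Serine, one-carbon and nucleotide synthesis genes had 22 shorter and 10 longer of 32, and 18 and 13 at equal peak number. Glycolysis genes had 18 shorter and 10 longer of 30, and Pkm, pyruvate kinase (4556 bp and 1856 bp), and Pfkfb4 (553 bp and 1806 bp) were called in opposite directions. Oxidative phosphorylation genes had 41 longer and 37 shorter of 79. Asns, Trib3, Atf4, Per2 and Hmgcs1 were named after their values were seen.

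**Figure D4:**
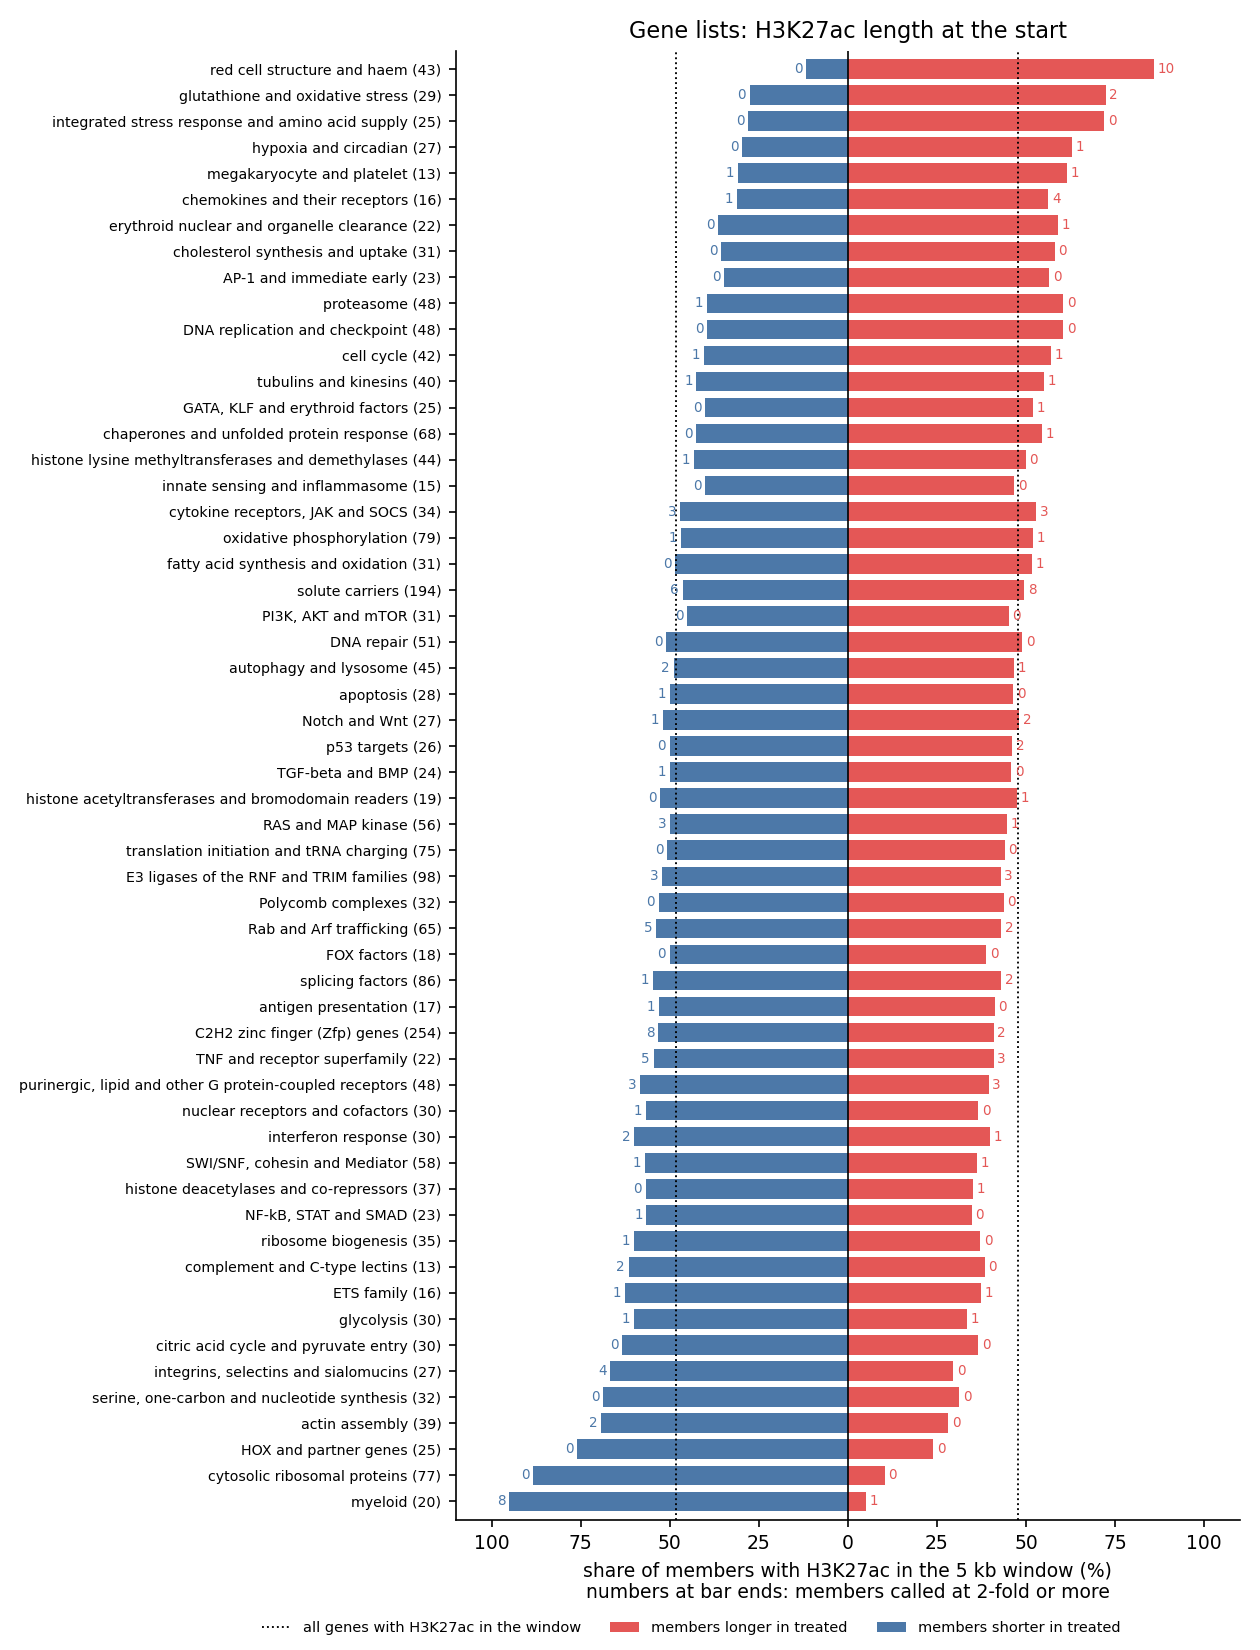
Share of acetylated members (%, in brackets their number) whose H3K27ac length within 5 kb of the start was longer (right) or shorter (left) in the treated list, for lists with 12 or more such members, 1 list left out; numbers at the bar ends count members called at 2-fold, and dotted lines mark all genes. Red cell genes (37 of 43 longer) stand at one end and ribosomal protein genes (68 of 77 shorter) and myeloid genes (19 of 20 shorter) at the other.

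Transcription factor and chromatin genes were mixed. HOX genes and their partners had 19 shorter and 6 longer of 25 and none called, with differences that ranged from -1047 bp at Pbx3 to 1000 bp at Hoxc12. Of 254 acetylated genes for C2H2 zinc finger (Zfp) proteins 135 were shorter and 104 longer. Of these 254, 8 were called shorter, near the share of 2.93% among all genes, and 2 longer, against 2.97%, led by Zfp971 (3309 bp and 1156 bp) and Zfp90 (1510 bp and 3310 bp). ETS family genes had 10 shorter and 6 longer of 16, with Ehf (353 bp and 2477 bp) called longer and Elk1 (1106 bp and 553 bp) called shorter. Stat3, a cytokine-activated factor, was called shorter (3415 bp and 1206 bp), and so was Ppara (1053 bp and 453 bp). Among chromatin genes, Brpf3, a scaffold of histone acetyltransferases (2153 bp and 4909 bp), Sin3b, a co-repressor (903 bp and 1885 bp), and Cdk8, a Mediator kinase (2059 bp and 4706 bp), were called longer. Ash2l, a subunit of H3K4 methyltransferases (2706 bp and 1203 bp), was called shorter. Polycomb genes had 17 shorter and 14 longer of 32 and none called, and genes for histone deacetylases and co-repressors 21 and 13 of 37.

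Signalling genes differed in both directions. Among all genes 2.97% were called longer and 2.93% shorter. Of 44 genes for cytokine receptors, JAK kinases and SOCS proteins, 18 were longer and 16 shorter, with 3 of the 34 acetylated ones called each way. Socs3, a feedback inhibitor (1203 bp and 3406 bp), and Il9r (453 bp and 2287 bp) were called longer, and the kinase gene Tyk2 (3636 bp and 1580 bp) and Il18r1 (1109 bp and 0 bp) shorter. Of 16 acetylated chemokine and receptor genes 4 were called longer and 1 shorter. Ackr1, the Duffy chemokine receptor of red cells, had 1353 bp and 5656 bp, Cxcl10 991 bp and 2194 bp, and Ccl9 2109 bp and 0 bp. Of 22 acetylated genes of the TNF superfamily 3 were called longer, led by Tnfrsf25 (1306 bp and 3574 bp) and Fasl (0 bp and 2147 bp), and 5 shorter, among them Tnfsf12 and the neighbouring lymphotoxin genes Lta (2257 bp and 0 bp) and Ltb (3998 bp and 1848 bp). Of RAS and MAP kinase genes, the phosphatase genes Dusp8 (903 bp and 2524 bp) and Dusp2 (3403 bp and 1053 bp) were called in opposite directions, and the adaptor Grb2 shorter (1059 bp and 68 bp). Acvrl1, a TGF-beta family receptor, was called shorter (3447 bp and 1456 bp), and so was Notch3 (2159 bp and 653 bp), while Notch1 was called longer (0 bp and 1003 bp). Of 48 acetylated genes in the list of G protein-coupled receptors, 3 were called longer and 3 shorter. F2r, a thrombin receptor (703 bp and 1653 bp), Gpr152 (703 bp and 1453 bp) and Gpr183 (553 bp and 1153 bp) were longer. The purine and lipid receptor genes Adora3 (1353 bp and 0 bp), P2rx2, an ion channel kept in the same list (1203 bp and 0 bp), and Lpar6 (1953 bp and 0 bp) were shorter.

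Cell cycle, p53 and transport genes are set beside all genes, of which 2.97% were called longer and 2.93% shorter. Cell cycle genes had 24 longer and 17 shorter of 42, with Btg2 called longer and Ccnd1, cyclin D1, called shorter (2559 bp and 803 bp). The p53 targets had 12 longer and 13 shorter of 26, with Btg2 and Phlda3 (956 bp and 5457 bp) called longer. Of 364 solute carrier genes 194 had H3K27ac, 96 were longer and 90 shorter, and 8 and 6 were called, near the shares of 2.97% and 2.93% among all genes. Slc30a10, a manganese exporter (1656 bp and 4906 bp), and Slc22a4 (753 bp and 3206 bp) were called longer, and Slc17a9, a vesicular nucleotide transporter (5109 bp and 1103 bp), and Slc45a3 (4659 bp and 703 bp) shorter. In trafficking, 35 Rab and Arf genes were shorter and 28 longer of 65, with 5 called shorter and 2 longer, against 2.93% and 2.97% of all genes. Rab25 (3384 bp and 1181 bp), with no peak within 1 kb of its start, and Rab44 (2256 bp and 703 bp) were called shorter. Arl13b (503 bp and 1456 bp) and Rab3d (553 bp and 1503 bp) were called longer. Of lysosomal genes Ctsd, cathepsin D, was called longer (2103 bp and 4435 bp), and Psap, prosaposin (3509 bp and 1453 bp), and Lamp2 (2515 bp and 903 bp) shorter. Clec4d, a lectin of myeloid cells, had 2312 bp and 0 bp. Of 1106 olfactory receptor genes, which serve smell and not blood, 16 had any H3K27ac, and so had 3 of 104 keratin genes. Of these 16, 3 were called longer and 4 shorter, a higher share than among all genes (2.97% and 2.93%). Genes with little H3K27ac were called more often: of the 1617 genes with a mean length below 1000 bp, 102 were called longer and 120 shorter.

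Some genes differed at 1 start and not at another. Of 1287 genes with starts over 2 kb apart, 46 had a start acetylated in both lists and another acetylated in the untreated list only, and 24 had one in both and another in the treated list only. Of all 21263 starts, 318 were in the untreated list only and 186 in the treated list only. Counted by gene, that order turned at equal peak number, to 193 and 328. Some differences at a start were slight, such as 3 bp against 0 bp at Tlk2 and 25 bp against 0 bp at Mgat1. Steap3 gained 1922 bp within 1 kb of its most upstream start, which had 0 bp untreated. Prxl2a gained 1722 bp and Epb41, the red cell protein 4.1 gene, 1499 bp at a start. Lost starts included those of Adcy7, an adenylate cyclase (1906 bp and 0 bp), Sema6b (1753 bp and 0 bp), Psap (1591 bp and 0 bp) and Tsc22d3, the glucocorticoid-induced leucine zipper gene (1581 bp and 0 bp). This comparison and its examples were added after the data were seen.

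Peaks far from starts differed more between the lists than peaks at starts. Within 1 kb of a start, 584 of 10598 untreated peaks (5.51%, exact 95% interval 5.08 to 5.96%) and 255 of 9641 treated peaks (2.64%, 2.33 to 2.99%) had no overlap in the other list. Between 5 and 20 kb away these shares were 40.3% and 26.3%, and over 100 kb away 43.6% and 33.2%. At equal peak number the order of the lists turned, to 3.1% and 4.61% within 1 kb and 34.1% and 40.5% over 100 kb away, while the difference with distance remained. Peaks at starts are wider, and a wide peak is more often overlapped, so the shares were also taken within width classes. Of untreated peaks from 1000 to below 2000 bp, 1.52% (1.15 to 1.96%) near a start and 23.4% (22.1 to 24.7%) farther away were in that list alone, and of treated peaks 41 of 3585 near a start and 16.2% farther away. For peaks of 2000 bp and over the shares were 0.217% and 5.62% untreated and 0.38% and 5.26% treated. In bases, 31.9 Mb lay in both lists, which is 76.9% of the untreated and 77.5% of the treated length. A further 9.56 Mb lay in the untreated list alone and 9.27 Mb in the treated list alone.

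**Figure D5:**
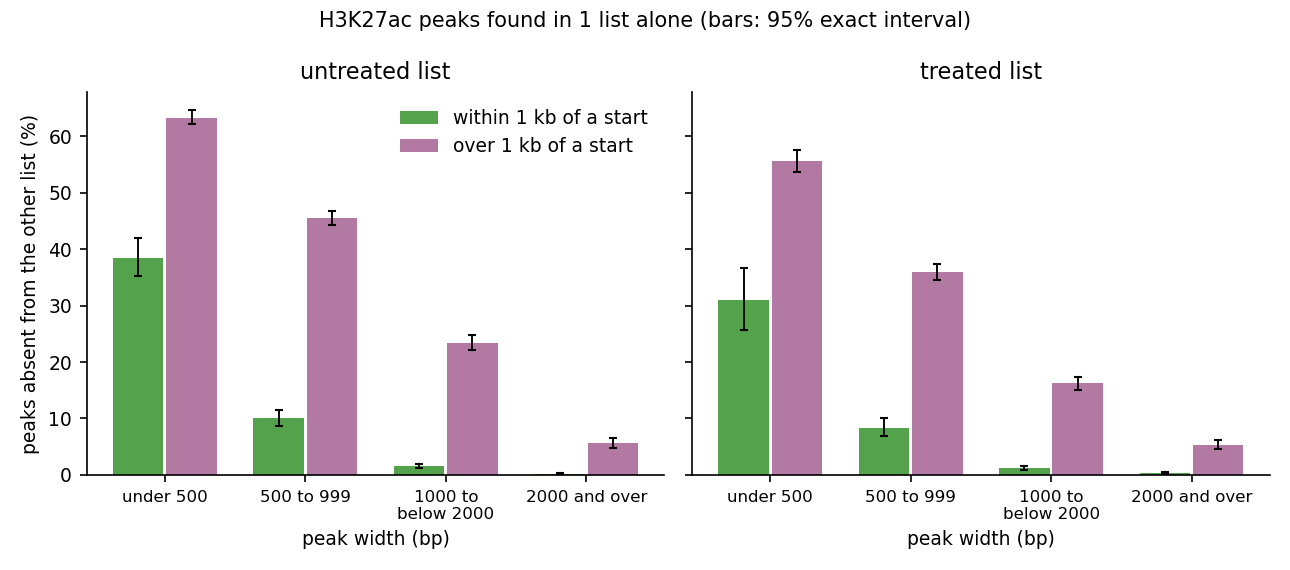
Share of H3K27ac peaks (%, vertical axis) with no overlap in the other list, by peak width (bp, horizontal axis) and by distance to the nearest start, for the untreated list (left) and the treated list (right); error bars are exact 95% intervals over peaks. In every width class of both lists the share was lower within 1 kb of a start, for example 1.52% against 23.4% for untreated peaks from 1000 to below 2000 bp.

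In bins of 500 kb the largest gains and losses lay around a few genes. Of 3052 bins with H3K27ac, 44 (1.44%) were called longer and 36 (1.18%) shorter, with a minimum of 10000 bp. Beside the gene counts given by bin, 47.8% of all genes with H3K27ac in the 5 kb window were longer and 48.3% shorter. The largest gain was chr11:32000001-32500000, the alpha-globin region, with 11642 bp in 14 peaks untreated and 43507 bp in 19 peaks treated, where 11 of 13 genes were longer and 0 shorter. The bin before it, which holds Cpeb4 and Bod1, went from 7477 bp to 35816 bp. A bin on chromosome 10 with Mical1, Ak9 and Fig4 (chr10:41000001-41500000) had 10539 bp and 33716 bp. The bin at chr5:34500001-35000000, with Msantd1 (0 bp and 4546 bp at its start), Grk4, Nop14 and Rgs12, had 31987 bp and 56293 bp. The bin of Podxl had 29081 bp and 50934 bp. Neither this bin nor that at chr5:34500001-35000000 reached 2-fold. The largest loss was chr12:77000001-77500000, with 66376 bp in 42 peaks and 31766 bp in 22, where the 1 gene, Fut8, had 4856 bp and 3603 bp at its start. The bin of Muc13 and Umps on chromosome 16 had 49098 bp and 23586 bp. The bin of Tec, Slain2, Txk and Nfxl1 on chromosome 5 had 39231 bp and 15601 bp, with 4 of 8 genes shorter and 0 longer. Tec had 4257 bp and 1607 bp at its start, and the other named genes stayed under 2-fold, such as Nfxl1 (1759 bp and 1656 bp). On chromosome 10 the bin of Osbpl8, Nap1l1 and Zdhhc17 had 37069 bp and 16383 bp. The bin of Man2a2, Cib1, Gdpgp1 and Fes, a tyrosine kinase of myeloid cells (1206 bp and 0 bp), had 116674 bp and 92087 bp, under the 2-fold rule. In it 9 genes were shorter and 7 longer, and it also holds Sema4b, which gained length (8068 bp and 14424 bp). Over whole chromosomes the treated length was 0.957 times the untreated on chromosome 3 and 1.05 times on chromosome 16, the ends of the range.

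The H3K4me1 lists of the same treatment, which hold replicate 1 alone, gave a second mark at the same sites. H3K4me1 marks enhancers whether or not they are active. Of H3K27ac peaks in the untreated list alone, 98.5% (98.2 to 98.7%) overlapped H3K4me1 in the untreated list and 96.4% (96.0 to 96.8%) in the treated list. Of those in the treated list alone, 94.4% (93.7 to 95.1%) overlapped it in the untreated list and 98.0% (97.6 to 98.4%) in the treated list. Thus 95.9% and 94.1% of these peaks had H3K4me1 in both lists, slightly less than the 99.2% of untreated and 99.4% of treated H3K27ac peaks that were shared. At the starts, H3K4me1 length moved with H3K27ac: it was longer in the treated list at 290 of the 333 genes called longer in H3K27ac (87.1%), with a median of 1365 bp. It was longer at 101 and shorter at 224 of the 328 genes called shorter (median -603 bp), and longer at 69.8% of genes not called (median 400 bp). At Sox6 the H3K4me1 length was 27622 bp and 41025 bp, and at Ilkap 8765 bp and 13860 bp.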

How the data were processed

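ChIP-seq peak lists of H3K27ac (2 replicates per list) and H3K4me1 (replicate 1) were used. Per the submitters' processing notes, bcl2fastq 2.17.1.14, BWA and build mm10 were used. Not given in the sources used here are the peak caller, its thresholds, the read depth and how replicates were combined. Peak number and width can depend on each of these. The deposited H3K27ac lists give other measures than signal: positions and a width in bp, with no score that ranks peaks. Starts lie on a grid of 50 bp, and 38 untreated and 18 treated peaks off the assembled chromosomes were left out.

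Starts came from a RefSeq promoter table (GRCm38.p6) for 17492 genes, and both annotated ends stood in for them at 4395 genes. Covered bp were summed within 1 kb and 5 kb of starts, per nearest start and per 500 kb bin, with numpy 2.4.6, pandas 2.3.3, scipy 1.17.1 and Python 3.11.15. Calls needed a ratio of 2 and a minimum length (1000 bp, 2000 bp for nearest starts, 10000 bp for bins). Overlaps were checked against bedtools 2.31.1. The calling code was also run on a copy of the untreated list with all peaks at chosen genes removed. Such genes must be called by the rule, so this checks the code and not how reliable the calls are. Figures used matplotlib 3.10.9. Exact Clopper-Pearson intervals of 95% cover counting error over peaks or promoters only.

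Named genes are the 12 with the largest difference each way for windows and nearest starts, up to 3 called members per list and direction, 10 genes per single-list start state, up to 4 genes in the 5 leading bins each way, and Spi1. Other names are stated as chosen after their values were seen, or serve as neighbours, markers or list examples. The members and the 64 gene lists were chosen with earlier results of these data known. Results of 1 list and of a few genes are not reported here. Replicate numbers in the labels name no shared culture or day.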

Additional observations from a re-analysis of the deposited data

How the results depend on the processing

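Of 129 alternative values, 95 stayed within the limits set for them and 34 moved, each taken singly. While 0 changed sign, most are counts, shares or ratios, which cannot be negative. The order of a pair of counts or shares could still turn, as stated here and beside the results. A ratio of at least 3 left 168 genes called longer and 157 shorter in start windows, 376 and 355 by nearest start, and 10 and 5 bins. Windows of 2 kb gave 214 and 182 genes, and windows of 20 kb 526 and 564. With the widest peaks at equal number (23341 per list), 193 genes had a start acetylated in the untreated list only and 328 in the treated list only. The share of peaks in 1 list alone was then 3.1% (untreated) and 4.61% (treated) within 1 kb of a start and 34.1% and 40.5% over 100 kb away, an order opposite to that of all peaks. Under a reciprocal overlap of 50% these were 20.2%, 12.2%, 69.3% and 60.9%. Overlap of untreated-only H3K27ac peaks with H3K4me1 was 97.7% (untreated) and 95.1% (treated) when at least 50% of the peak had to be covered, and that of treated-only peaks 91.0% and 97.1%. For peaks of at least 200 bp it was 98.8% and 97.0%, and 95.5% of treated-only peaks overlapped untreated H3K4me1. Within 500 bp of the start the GATA share was 2.36% for untreated-only and 2.67% for treated-only promoters, an order opposite to that within 1 kb. The shorter core GAGGAA, added after the data were seen, gave 34% and 20.4%. The cause of these differences was not tested. Alternatives limited to genes in the promoter table, and with each base given to its nearest start, were also added after the data were seen.

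No paired analysis was possible because both replicates of a condition stand in 1 H3K27ac list, and the runs without each replicate were not made for the same reason. The depth behind each list is unknown, and absence of a peak is not absence of the mark.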
